A study of Mus musculus with 6 samples.

Results

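The immediate early genes described here are 10 genes of the AP-1 group and other rapid response genes, chosen by symbol: Fos, Fosb, Jun, Junb, Jund, Egr1, Atf3, Ier2, Ier3 and Zfp36. All 10 were found among the 25102 genes of the table, and 9 of them had a mean of at least 1 FPKM (fragments per kilobase of transcript, relative to all mapped fragments of the library) over the 6 libraries and were among the 8528 genes tested. Fosb, at 0.375 FPKM on average, was not tested. Poly(A) RNA came from liver of male C57BL/6J mice that entered the study at 2 weeks of age. The libraries are called C1, C2 and C3 (control) and D1, D2 and D3 (DEN+CCl4) after their replicate numbers. The DEN+CCl4 mice received diethylnitrosamine (DEN) once at 1 mg/kg and, from around 6 weeks later, carbon tetrachloride (CCl4) at 0.2 mL/kg by intraperitoneal injection 2 times a week for at most 14 weeks. For the control mice the labels name no vehicle or other agent. DEN is activated by hepatocytes to a DNA-damaging carcinogen and CCl4 injures hepatocytes repeatedly, and the labels call the combination a model of hepatocellular carcinoma. Not given are the sampled part of the liver (tumour or the tissue around it), how long after the last injection the livers were taken, and whether each replicate number is a separate animal, so p-values cover only the spread among these libraries, which may be technical.

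Immediate early genes are transcribed within minutes of a growth factor, cytokine or stress signal, without new protein synthesis, and their mRNAs are short-lived. Fos and Jun family proteins pair through leucine zippers into AP-1, a dimer that binds DNA. The Jun proteins can pair with each other, whereas the Fos proteins need a Jun partner. In liver this response is well known from partial hepatectomy and from toxic injury, and it also starts when tissue is handled.

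D3 stood apart from the other libraries. Mitochondrially encoded transcripts took 64.2% of its summed FPKM against 26.6% to 43.0% in the other 5, and its median tested gene was at 1.19 FPKM against 3.43 to 4.46 FPKM. Over all tested genes the log2 fold change had a median of -0.27 as deposited and 0.01 after median-ratio scaling (a factor per library, the median over genes of its value relative to the geometric mean of all 6). Results are therefore given on both scales, and without this library where that matters. D1 lay closest to the controls. All 7 hepatocyte markers were detected in every library, with 0 called and with 7 negative log2 fold changes as deposited and 3 after scaling. Alb, the serum albumin gene, was between 7482 and 24459 FPKM. Cps1, a urea cycle enzyme, was lower in every DEN+CCl4 library than in any control on both scales (119.5, 121.1 and 121.4 FPKM against 111.4, 43.9 and 12.9 FPKM). Tat, a tyrosine-degrading enzyme, was at 660, 1012 and 889 FPKM against 870, 222 and 21.9 FPKM. In bulk liver, fewer cells of a type and less RNA per cell cannot be told apart.

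Ier3 rose in DEN+CCl4 liver on the deposited scale and was the only tested member that passed. Fos and Junb were higher relative to Jun and Jund in every DEN+CCl4 library than in any control, a difference that did not pass its exact test with 3 libraries a group. Of the 9 tested members, 1 was higher and 0 were lower at a limma adjusted p under 0.05, against 0.833% of all tested genes higher, 0.645% lower and 1.48% in either direction. Of the 9, 1 lay above all controls in every DEN+CCl4 library as deposited, against 3.01% of tested genes (8.36% without overlap in either direction), and 3 did after median-ratio scaling (Ier3, Fos and Junb), against 7.63%. These 3 were also the members at an unadjusted limma p under 0.05 on the scaled values, where 5.49% of tested genes were higher and 5.23% lower at that level and 0 genes passed after adjustment. The summed FPKM of the 10 genes was 158, 464 and 208 in controls and 284, 412 and 83.8 in D1, D2 and D3. After median-ratio scaling it was 135, 401 and 165 against 223, 300.1 and 235. The summed level therefore overlapped between the groups on both scales, and C2 had the highest sum of all. The median log2 fold change of the 9 tested members was 0.47 as deposited, 0.74 above that of all tested genes, and 0.91 after median-ratio scaling, 0.89 above it. The members did not shift together: after scaling 6 log2 fold changes were positive and 3, those of Jun, Jund and Zfp36, were negative.

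**Figure D1:**
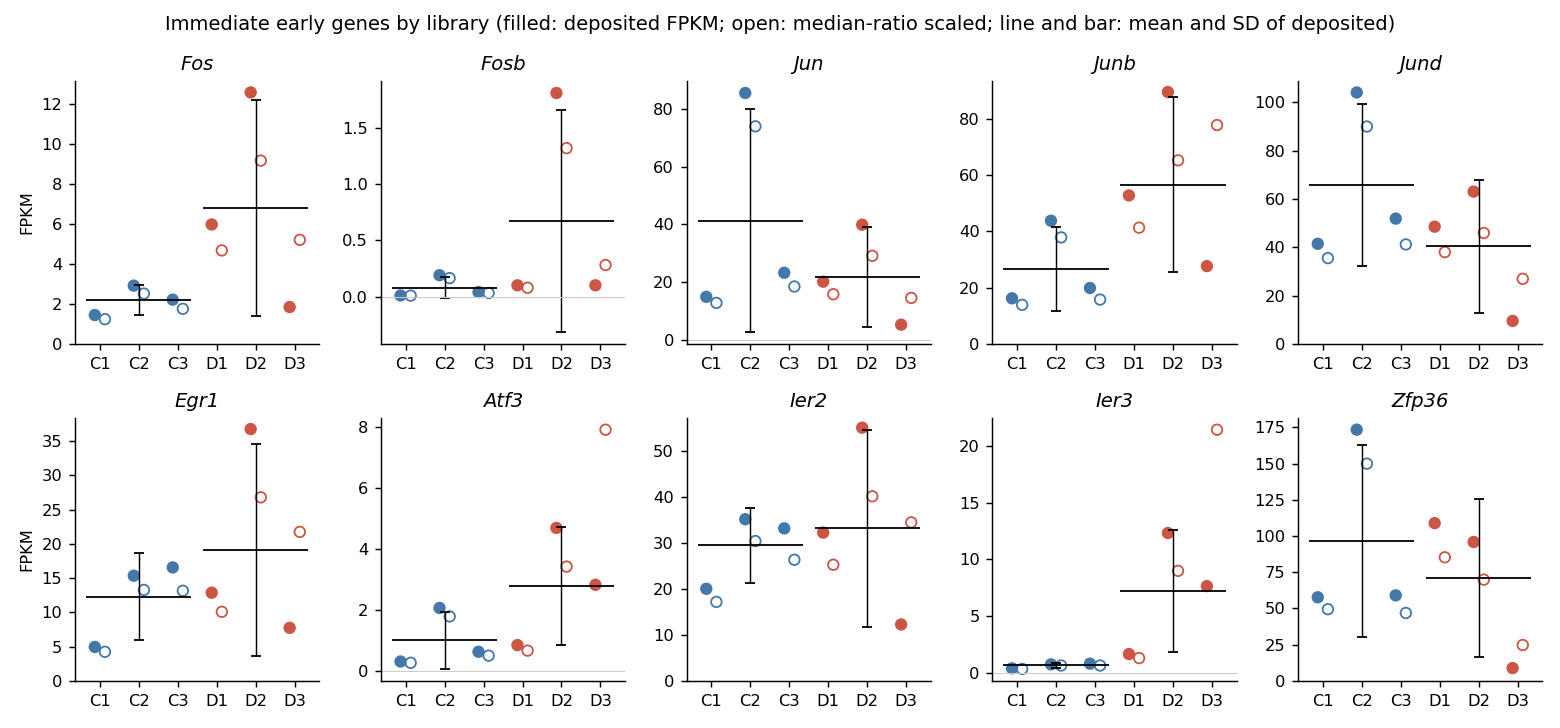
FPKM of the 10 immediate early genes (y axes, 1 panel a gene, each on its own scale) in control libraries C1 to C3 (blue) and DEN+CCl4 libraries D1 to D3 (red); filled points are deposited FPKM, open points are median-ratio scaled, and lines with bars are the group mean and SD of the deposited values. Ier3 is higher in all 3 DEN+CCl4 libraries on both scales, Fos and Junb are so after scaling, and Jun, Jund and Zfp36 are highest in C2.

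Ier3, a stress-induced gene that modulates cell survival and ERK signalling (chromosome 17, 35821684 to 35822923, GRCm38), was at 0.38, 0.73 and 0.79 FPKM in C1 to C3 and at 1.64, 12.3 and 7.63 FPKM in D1, D2 and D3. Every DEN+CCl4 library was above every control, the lowest being D1. Group means were 0.633 ± 0.221 and 7.19 ± 5.35 FPKM (SD, n = 3). The log2 fold change was 2.05 ± 0.51 (SE; limma adjusted p = 0.01003), and 99.6% of tested genes had a lower fold change. With a control mean under 1 FPKM, Ier3 reached the filter through its DEN+CCl4 values. The call depended on the settings. Its limma adjusted p was 0.453 after median-ratio scaling, where the log2 fold change was 2.39 ± 0.73. It was 0.608 without D3 (1.87), 0.0836 without D2 and 0.000568 without D1. Without C1, C2 or C3 it was 0.363, 0.247 and 0.318. The exact two-sided permutation p was 0.1, the smallest that 3 against 3 libraries allow.

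Fos, the AP-1 subunit that is the best-known immediate early gene (chromosome 12, 85473890 to 85477273), was at 1.46, 2.93 and 2.23 FPKM in C1 to C3 and 5.99, 12.6 and 1.86 FPKM in D1, D2 and D3. As deposited the groups overlapped through D3. The log2 fold change was 1.04 ± 0.57 (SE; limma adjusted p = 0.726). After median-ratio scaling the values were 1.25, 2.53 and 1.77 against 4.69, 9.19 and 5.22, with no overlap. That gave 1.34 ± 0.31 (limma adjusted p = 0.435). Without D3 the deposited values gave 1.63 (limma adjusted p = 0.399). Fosb, a close relative induced by the same signals, read 0.01, 0.19 and 0.04 FPKM in C1 to C3 and 0.10, 1.81 and 0.10 FPKM in D1 to D3, and D1 and D3 lay inside the control range. The other Fos family genes were under the filter: Fosl1, at 0, 0 and 0.06 FPKM in controls, read 0.23, 0.43 and 0.99 FPKM in D1 to D3, and Fosl2 was between 0.18 and 1.07 FPKM in all libraries.

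Junb, a Jun protein that often opposes Jun in growth control (chromosome 8, 84974484 to 84978718), was at 16.3, 43.8 and 19.9 FPKM in C1 to C3 and 52.7, 89.4 and 27.7 FPKM in D1, D2 and D3. Only D3 lay inside the control range as deposited. The log2 fold change was 1.04 ± 0.92 (SE; limma adjusted p = 0.996). Scaled by the median ratio, Junb was 13.9, 37.9 and 15.8 against 41.3, 65.2 and 77.7, and the groups did not overlap (1.498 ± 0.489, limma adjusted p = 0.453). Junb shares 351 bases at its end with Prdx2, a peroxiredoxin gene on the other strand, and with the use of strand not given, reads from the shared stretch cannot be told apart. Prdx2 itself was at 20.1, 11.4 and 21.6 FPKM in C1 to C3 and 20.7, 9.86 and 3.51 FPKM in D1 to D3.

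Jun, the founding member of AP-1 and needed for hepatocyte proliferation (chromosome 4, 95049034 to 95052222), was at 14.8, 85.7 and 23.2 FPKM in C1 to C3 and 20.1, 39.9 and 5.15 FPKM in D1, D2 and D3. C2 held the highest value and the groups overlapped. The log2 fold change was -0.88 ± 0.87 (SE; limma adjusted p = 0.996), -0.45 after median-ratio scaling and 0.28 when C2 was also left out. Jund, the Jun protein that is expressed steadily in resting tissue (chromosome 8, 70698949 to 70700616), read 41.5, 104 and 51.9 FPKM in C1 to C3 and 48.6, 63.1 and 9.63 FPKM in D1 to D3. It followed the same order as Jun within the controls. Its log2 fold change of -0.94 ± 0.95 became -0.48 after scaling (limma adjusted p = 0.996 and 0.743). Antisense transcripts overlap Jun and Jund, and both, Junos and Gm11175, were listed at 0 to 0.14 FPKM in every library.

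Ratios between these genes within a library do not depend on how the library was scaled. They were added after the values above had been seen. The ratio of Junb to Jund in FPKM was 0.392, 0.421 and 0.384 in controls and 1.09, 1.42 and 2.87 in D1, D2 and D3. Controls differed little and every DEN+CCl4 library was above them, D1 included. On the log2 scale the difference was 2.04 ± 0.42 (SE, n = 3 in each group). The ratio of Junb to Jun was 1.10, 0.511 and 0.859 in controls and 2.62, 2.24 and 5.37 in DEN+CCl4 liver (log2 difference 2.01 ± 0.51). Fos to Jund went from 0.0352, 0.0281 and 0.0429 to 0.123, 0.200 and 0.193 (log2 difference 2.27 ± 0.29), and Fos to Jun from 0.0984, 0.0342 and 0.0961 to 0.298, 0.316 and 0.361 (2.24 ± 0.51). All 4 log2 differences lay between 1.63 and 2.50 whichever library was left out. By contrast Junb to Fos (log2 difference -0.23 ± 0.38) and Jun to Jund (0.03 ± 0.40) overlapped between the groups. Over the 36 pairs of the 9 tested members, the ratios of 16 did not overlap between the groups, 44.4% of them, against 16.3% of all pairs of tested genes above 0 in every library. With the untested Fosb, whose low values carry 2 decimals, it was 18 of 45 pairs, or 40.0%. Pairs that share a gene are not independent. Pairs with Ier3 or Atf3 are among those without overlap. Both genes had control means under 1 FPKM and reached the filter through their DEN+CCl4 values, which favours separation of their pairs. The share of member pairs therefore supports no conclusion on its own. Each of the 18 had an exact two-sided permutation p of 0.1, the smallest possible here, and 0.25 after Benjamini-Hochberg adjustment over the 45 pairs, so none passed. Without D1 the count over the 45 pairs was 32, or 71.1%, against 42.6% of all pairs of tested genes. With any other library left out it was 42.2% to 53.3%, against 19.4% to 34.8% (without C2, 53.3% against 34.8%).

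**Figure D2:**
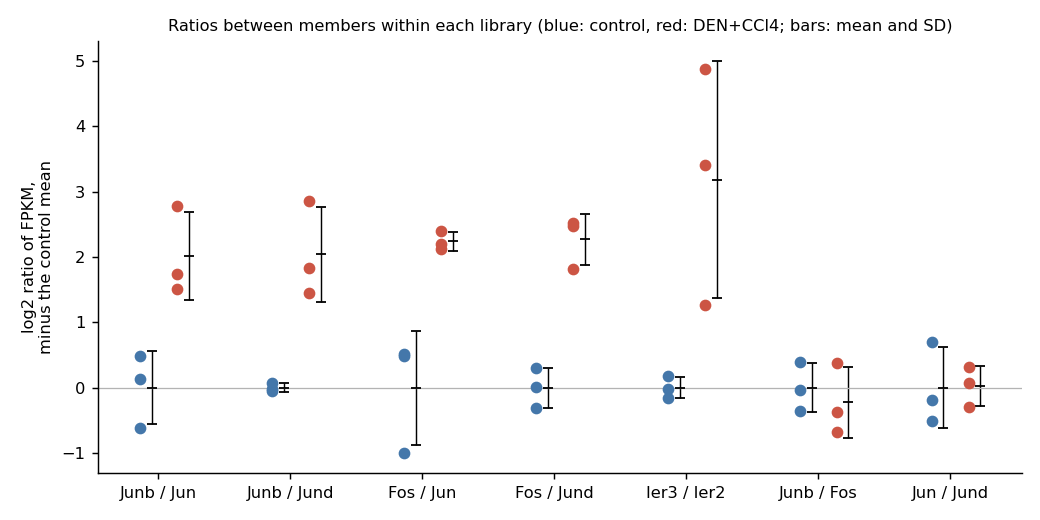
Log2 ratio of FPKM between pairs of members within each library, with the control mean of each pair subtracted (y axis), for 7 pairs (x axis, Ier3 to Ier2 among them); points are libraries (blue control, red DEN+CCl4) and bars are the mean and SD of each group of 3. The 4 ratios of Junb or Fos to Jun or Jund lie about 2 log2 units above the controls, and Junb to Fos and Jun to Jund overlap.

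Put as shares, Junb made up 22.4%, 18.7% and 21.0% of the summed FPKM of Jun, Junb and Jund in controls and 43.4%, 46.5% and 65.2% in D1, D2 and D3. The mean went from 20.7 ± 1.84% to 51.7 ± 11.8% (SD, n = 3; exact two-sided permutation p = 0.1). Jund held 57.2%, 44.6% and 54.6% in controls and 40.0%, 32.8% and 22.7% in DEN+CCl4 liver, also without overlap. The share of Jun overlapped, at 20.4% to 36.7% against 12.1% to 20.7%. The summed Jun family FPKM overlapped as well, at 72.6, 234 and 95.1 in controls and 121, 192 and 42.5 in DEN+CCl4 liver. Fos family FPKM (Fos, Fosb, Fosl1 and Fosl2) came to 2.81%, 1.55% and 2.95% of Jun family FPKM in C1 to C3 and 6.08%, 8.19% and 7.37% in D1, D2 and D3. These shares are of mRNA and were not measured for protein.

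**Figure D3:**
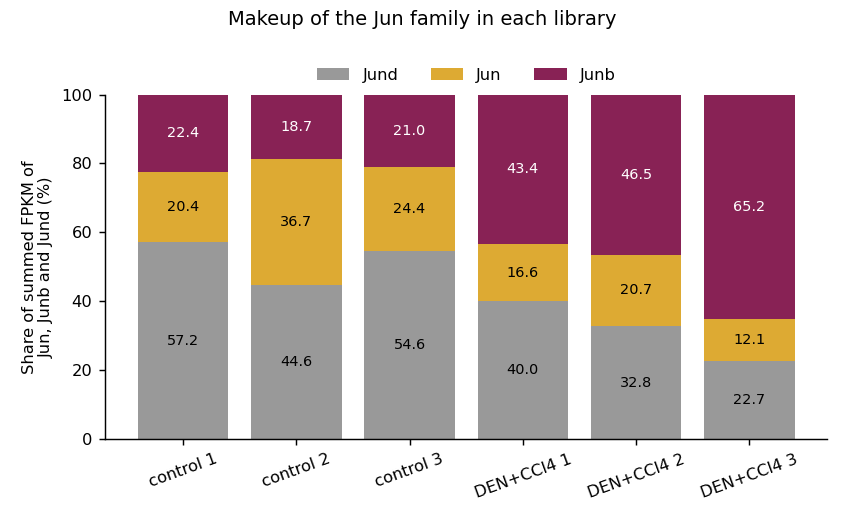
Share of the summed FPKM of Jun, Junb and Jund held by each gene (y axis, percent) in each of the 6 libraries (x axis); each stacked bar adds to the whole family. Junb holds 18.7% to 22.4% in the controls and 43.4% to 65.2% in the DEN+CCl4 libraries, and the part of Jund is smaller in all 3.

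Atf3, a bZIP protein induced by stress that can pair with Jun proteins (chromosome 1, 191170296 to 191218039), read 0.30, 2.06 and 0.62 FPKM in C1 to C3 and 0.84, 4.69 and 2.82 FPKM in D1 to D3. D1 and C2 overlapped. The log2 fold change was 0.88 ± 0.45 (SE; limma adjusted p = 0.666), and its control mean of 0.993 FPKM was under the filter. Egr1, a zinc finger factor induced by ERK signalling (chromosome 18, 34859823 to 34864984), was at 4.96, 15.4 and 16.6 FPKM in C1 to C3 and 12.9, 36.8 and 7.75 FPKM in D1 to D3. It was highest in D2 and otherwise within the control range. Its log2 fold change was 0.47 ± 0.78 (limma adjusted p = 0.996), 0.91 after scaling and -0.12 without D2. Ier2, a nuclear immediate early protein (chromosome 8, 84661331 to 84662852), was the steadiest member after scaling, between 17.2 and 40.2. As deposited it was at 20.1, 35.2 and 33.2 FPKM in C1 to C3 and 32.3, 55.1 and 12.3 FPKM in D1 to D3, and its log2 fold change was -0.02 as deposited and 0.43 after scaling.

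Zfp36, also called tristetraprolin, ends the response by binding AU-rich elements in mRNAs and speeding their decay (chromosome 7, 28376784 to 28380253). It was the member with the highest mean level per length, 84.0 FPKM, and 95.9% of tested genes had a lower mean. It read 57.8, 173 and 59.1 FPKM in C1 to C3 and 109, 95.9 and 8.83 FPKM in D1, D2 and D3. D1 and D2 lay between the controls and D3 below them. The log2 fold change was -0.85 ± 1.00 (SE; limma adjusted p = 0.996), -0.40 after median-ratio scaling and 0.28 without D3. Gm44710, antisense to Zfp36, was at 0 to 0.59 FPKM.

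**Figure D4:**
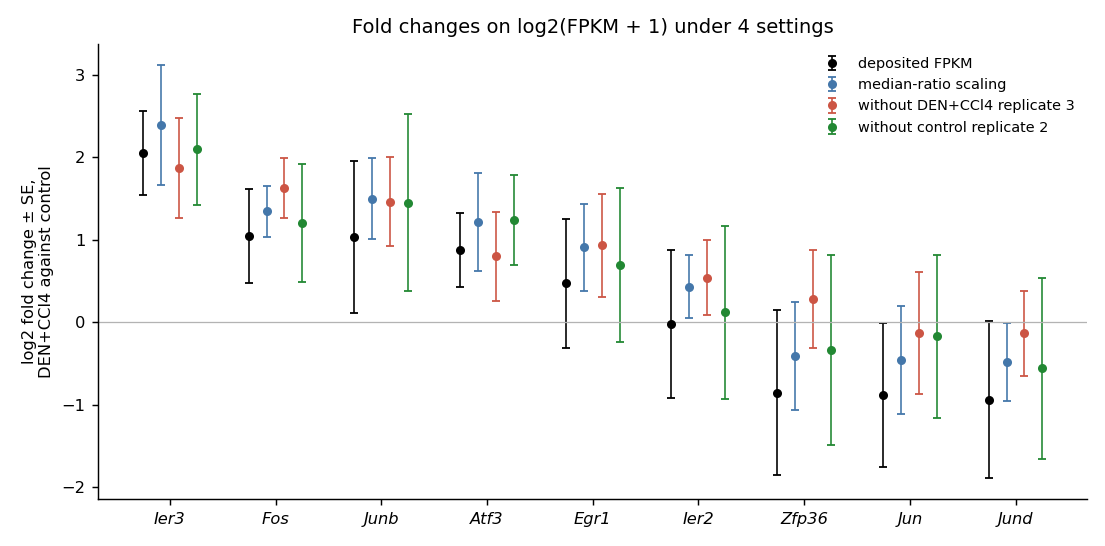
Log2 fold change of DEN+CCl4 against control on log2(FPKM + 1) (y axis, points with SE bars) for the 9 tested members (x axis) under 4 settings: deposited FPKM, median-ratio scaling, and deposited FPKM without D3 or without C2. Ier3, Fos, Junb, Atf3 and Egr1 are above 0 in all 4, Ier2 and Zfp36 change sign, and Jun and Jund are below 0 in all 4.

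Jun, Jund and Zfp36 varied together after median-ratio scaling, and Fos, Junb and Ier3 did so apart from them. Across the 6 libraries, which include both groups, Pearson's r of log2 values was 0.95 for Jun with Jund, 0.89 for Zfp36 with Jund and 0.78 for Zfp36 with Jun. It was 0.90 for Fos with Junb, 0.84 for Junb with Ier3 and 0.99 for Egr1 with Ier2, but -0.06 for Junb with Jund and -0.46 for Ier3 with Jund. As deposited, Fos and Junb were less apart from Jun and Zfp36. There r was 0.42 for Fos with Jun, 0.46 for Fos with Zfp36, 0.48 for Junb with Jun and 0.43 for Junb with Zfp36. Ier3 stayed apart, at -0.24 with Jun and -0.40 with Zfp36. These values describe 6 libraries and were not tested. Averaged over the 10 members after median-ratio scaling, the centred log2 value was -0.84, 0.28 and -0.47 in controls and -0.16, 0.74 and 0.46 in D1, D2 and D3. Among genes averaging 5 FPKM or more, those most like this average were Anks3, Rbck1, Chd4 and Nxf1 (r = 0.99 each), followed by Bag6, Nsmf, Mib2 and Tln1 (0.98 each). As deposited the most alike was Wdr74, and Zfp36l1, a relative of Zfp36, was among the 8 closest.

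Promoter sequences of 8 of the 10 members matched RefSeq entries on GRCm38.p6, and 5 are shown as the 250 bases before the RefSeq start, 5′ to 3′ on the gene's strand. Ier3, Fos and Junb are the members above all controls after scaling, and Jun and Zfp36 varied apart from them on that scale. Capitals mark matches to the motifs searched on both strands: the serum response element core (CArG box), the kappaB site, the AP-1 site TGANTCA, the cyclic AMP response element TGACGTCA, the STAT site TTCNNNGAA and the EGR site GCGNGGGCG, and on the gene's strand only the TATA box TATAAA.
Ier3 (chr17:35821463-35821712, plus strand): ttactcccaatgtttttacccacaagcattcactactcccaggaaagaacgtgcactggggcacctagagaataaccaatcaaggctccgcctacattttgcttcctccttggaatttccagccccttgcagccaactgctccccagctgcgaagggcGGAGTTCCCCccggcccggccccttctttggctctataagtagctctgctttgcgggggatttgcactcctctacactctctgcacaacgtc
Fos (chr12:85473640-85473889, plus strand): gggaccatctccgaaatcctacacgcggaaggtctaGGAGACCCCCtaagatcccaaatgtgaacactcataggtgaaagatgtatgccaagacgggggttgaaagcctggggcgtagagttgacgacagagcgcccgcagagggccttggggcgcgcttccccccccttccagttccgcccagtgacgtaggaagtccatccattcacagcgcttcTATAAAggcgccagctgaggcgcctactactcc
Junb (chr8:84978749-84978998, minus strand): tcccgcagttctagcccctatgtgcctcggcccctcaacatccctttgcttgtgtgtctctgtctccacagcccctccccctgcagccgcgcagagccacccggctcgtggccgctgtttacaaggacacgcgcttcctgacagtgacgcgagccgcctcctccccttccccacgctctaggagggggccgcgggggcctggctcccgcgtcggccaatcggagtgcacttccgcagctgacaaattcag
Jun (chr4:95052223-95052472, minus strand): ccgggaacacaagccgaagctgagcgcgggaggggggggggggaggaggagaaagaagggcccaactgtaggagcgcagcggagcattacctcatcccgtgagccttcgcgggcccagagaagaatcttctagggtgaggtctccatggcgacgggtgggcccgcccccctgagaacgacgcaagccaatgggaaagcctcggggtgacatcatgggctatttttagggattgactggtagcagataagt
Zfp36 (chr7:28379229-28379478, minus strand): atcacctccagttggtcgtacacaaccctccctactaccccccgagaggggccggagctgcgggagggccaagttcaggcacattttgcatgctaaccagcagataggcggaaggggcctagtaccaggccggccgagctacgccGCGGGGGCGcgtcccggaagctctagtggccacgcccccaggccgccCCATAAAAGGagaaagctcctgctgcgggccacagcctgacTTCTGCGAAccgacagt
Ier3 held a kappaB match, 92 bases before the start, the motif of the factor NF-kappaB. Fos held a TATA box at 33 and a kappaB match at 214 bases before the start. Zfp36 held a CArG match at 58, an EGR match at 105 and a STAT match at 17 bases before the start. Junb and Jun held none of the 7 motifs in this window, which says only that these letters are not in it. Among the members not shown, Fosb held a kappaB match at 188 and an EGR match at 50 bases before the start. Jund and Atf3 held none of the 7. The kappaB match was thus in 3 of the 8 members searched, and 1 of these, Fosb, overlapped between the groups on both scales. Of 32851 promoter windows of this length, 7.25% held a kappaB match, 1.47% a CArG match, 7.02% a STAT match, 4.7% an EGR match, 7.59% a TATA box, 6.75% an AP-1 match and 1.55% a cyclic AMP response element. The matches describe sequence and do not show binding.

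Of 26 further genes that are no transcription factors, such as phosphatases, growth arrest genes and RNA decay factors, 22 were tested, 1 was higher and 0 were lower. The gene that rose was Dusp5, a nuclear phosphatase that switches off ERK. It was at 0.21, 0.37 and 0.16 FPKM in C1 to C3 and 0.69, 24.5 and 1.54 FPKM in D1, D2 and D3 (log2 fold change 1.94, limma adjusted p = 0.00715). Most of the difference lay in D2: without it the log2 fold change was 0.74 (limma adjusted p = 0.542), and after median-ratio scaling the adjusted p was 0.453. Without D3 it was 0.608 and without C1, C2 or C3 it was 0.155, 0.255 and 0.286. Like Ier3, Dusp5 reached the filter through its DEN+CCl4 values. As deposited, 1 of the 22 (Dusp5) lay above all controls in all DEN+CCl4 libraries, against 3.01% of all tested genes, and 0 lay below them, against 5.35%. After scaling, 6 lay above, against 7.63%, and 0 below, against 6.52%. The 6 were Dusp5 and, named after their values were seen, Ctgf, Rhob, Socs3, Zfp36l2 and Mcl1. Socs3, the feedback inhibitor of interleukin-6 signalling, was at 3.64, 5.96 and 3.09 FPKM in C1 to C3 and 11.6, 10.4 and 3.28 FPKM in D1 to D3. Ctgf, a matrix-associated growth factor gene, was at 0.89, 1.71 and 0.89 FPKM against 2.99, 5.44 and 1.44 FPKM. Dusp1, the phosphatase that limits p38 and JNK and also named after its values were seen, was at 25.9, 76.2 and 17.1 FPKM in C1 to C3 and 51.6, 25.8 and 1.56 FPKM in D1 to D3, highest in C2 like Jun, Jund and Zfp36.

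Of 21 other immediate early and AP-1 family transcription factors 9 were tested, and 0 were called in either direction by limma (0 also at an unadjusted p under 0.05 as deposited). As deposited, 1 of the 9 (Klf6) lay above all controls in every DEN+CCl4 library, against 3.01% of tested genes. With a control mean of 0.583 FPKM, Klf6 reached the filter through its DEN+CCl4 values. After scaling 1 did (Csrnp1), against 7.63%. On both scales 0 lay below all controls, against 5.35% and 6.52%. Of the 9 log2 fold changes, 4 were positive as deposited and 7 after scaling. Their median was 0.16 above that of all genes as deposited and 0.34 above it after scaling. Those with the highest means were Atf4, the translationally controlled stress factor (42.4, 53.1 and 38.4 FPKM against 60.5, 79.0 and 14.1 FPKM), Klf10, a target of transforming growth factor beta (1.86, 18.2 and 5.35 against 5.42, 34.1 and 2.58), Maff and Csrnp1. Klf10 was highest in C2 among controls and in D2 among DEN+CCl4 libraries. Upstream kinases and transcription factors carry growth factor and stress signals to these promoters. Of 24 such genes, 17 were tested and 0 were called (0 at an unadjusted p under 0.05 as deposited). The median was 0.08 above all genes as deposited and 0.01 above after scaling. On both scales 1 of the 17, Mkl2, lay below all controls in every DEN+CCl4 library, against 5.35% and 6.52% of tested genes. Mkl2 read 1.48, 2.19 and 1.73 FPKM in C1 to C3 and 1.26, 0.98 and 0.15 FPKM in D1 to D3. Above all controls lay 0 as deposited, against 3.01%, and 1 after scaling (Map2k7), against 7.63%. Egfr, the receptor of epidermal growth factor, was at 21.9, 9.53 and 18.5 FPKM against 27.0, 15.3 and 3.51 FPKM. Map2k2, a kinase directly above ERK, was at 22.7, 18.5 and 27.0 FPKM against 21.7, 20.8 and 4.35 FPKM, so D1 and D2 were inside the control range for Map2k2.

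Among 17 mRNAs known to be driven by AP-1 or bound by Zfp36, 5 were tested and 0 were called, with 3 higher and 0 lower at an unadjusted limma p under 0.05. All 5 log2 fold changes were positive, with a median 1.22 above all genes. Genes of this list that are near 0 in controls pass the filter through their DEN+CCl4 values, so the count over those that passed supports no direction. Cxcl1, a chemokine that attracts neutrophils, was at 12.8, 11.2 and 5.62 FPKM in C1 to C3 and 117, 51.9 and 6.93 FPKM in D1, D2 and D3 (log2 fold change 1.82, limma adjusted p = 0.534). D3 overlapped the controls as deposited and not after scaling. Its relative Cxcl2, under the filter and named after its values were seen, was at 0.02, 0.08 and 0.03 FPKM in C1 to C3 and 0.41, 0.54 and 0.40 FPKM in D1 to D3. Tnf, whose mRNA is the classic target of Zfp36, read 0.05, 0.15 and 0.05 FPKM against 0.39, 0.78 and 0.15 FPKM. Of the other genes under the filter, Ccl2, Ccl3, Mmp12, Timp1 and Plaur lay above all controls on both scales, like Cxcl2. Il1b, Mmp9, Mmp13, Cd44 and Plau overlapped between the groups on both scales. Ccnd1, cyclin D1, stood at 1.52, 1.36 and 2.03 FPKM against 1.78, 17.04 and 3.68 FPKM, above all controls in D2 and D3. Spp1 and Hmox1 were the other tested members with high means, and both overlapped between the groups.

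Heat shock genes, which respond to tissue handling as immediate early genes do, had 9 of 10 members tested and 0 called (2 higher and 0 lower at an unadjusted limma p under 0.05). Their log2 fold changes went both ways, 5 positive and 4 negative on both scales. The median was 0.46 above all genes as deposited and 0.59 above after scaling. As deposited, 1 of the 9 (Hspa1b) lay above all controls in every DEN+CCl4 library, against 3.01% of tested genes. After scaling 4 did (Hspa1b, Hsph1, Dnajb1 and Hsp90aa1), against 7.63%. On both scales 0 lay below all controls, against 5.35% and 6.52%. The negative ones were those of Hspb1, Hspe1, Hspd1 and Dnaja1. The most abundant, Hspa8, the constitutive chaperone, was at 85.5, 50.4 and 74.5 FPKM in C1 to C3 and 92.2, 122 and 42.5 FPKM in D1 to D3. The inducible Hspa1b, named after its values were seen, was at 0.37, 0.37 and 0.22 FPKM against 0.74, 3.40 and 0.90 FPKM, higher in every DEN+CCl4 library. Hspa1b is among the 2 genes at an unadjusted limma p under 0.05. Like Hsph1, it passed the filter through its DEN+CCl4 values. Their part in the differences of the members was not tested.

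Markers of other liver cells were summed beside the members. Of 6 neutrophil markers 3 were tested and 1, S100a8, rose (0.76, 0.42 and 0.34 FPKM in controls against 3.19, 1.38 and 8.96 FPKM). Its log2 fold change was 1.63 (limma adjusted p = 0.0336, 0.462 after median-ratio scaling). With a control mean of 0.507 FPKM, S100a8 also reached the filter through its DEN+CCl4 values. The call was lost without D3 (limma adjusted p = 0.586) and without C1, C2 or C3 (0.303, 0.477 and 0.745). The summed neutrophil markers were 2.87 to 7.93 FPKM in C1 to C3 and 8.68 to 23.6 FPKM in D1 to D3, without overlap as deposited. After median-ratio scaling the sums overlapped, at 2.28 to 6.80 against 6.33 to 66.3. Of the other tested markers, S100a9 overlapped on both scales and Csf3r only as deposited. Cxcr2, one of the defining genes, was at 0 to 0.39 FPKM. Of 8 stellate cell and fibroblast markers 6 were tested and 0 called, the 6 with positive log2 fold changes. Of the untested markers, Lrat, the retinol-storing enzyme of resting stellate cells, was lower in every DEN+CCl4 library than in any control as deposited (0.58, 0.46 and 0.40 FPKM against 0.31, 0.35 and 0.15 FPKM) and overlapped after scaling, and Reln overlapped as deposited and lay above all controls after scaling. Their sum was 9 to 12.8 FPKM in C1 to C3 and 14.3 to 37.1 FPKM in D1 to D3. Col1a1, the collagen chain of scar tissue, was at 0.99, 0.63 and 0.74 FPKM against 3.38, 7.25 and 2.06 FPKM, and passed the filter through its DEN+CCl4 values. Kupffer cell and macrophage markers overlapped in sum, at 77.4 to 209 FPKM against 59.6 to 138 FPKM, with 0 of 9 tested called. Of the single markers, Timd4, under the filter, was below all controls on both scales (1.83, 0.96 and 0.76 FPKM against 0.24, 0.25 and 0.05 FPKM). Marco was so only as deposited, and the others overlapped on both scales. Summed endothelial markers (10.2 to 18.9 against 7.21 to 22.4 FPKM) and lymphocyte markers (5.72 to 6.88 against 4.11 to 9.65 FPKM) overlapped too as deposited. After scaling the lymphocyte sums did not, at 4.81 to 5.95 against 6.60 to 11.5. Lyve1, Cd3g, Cd2 and Nkg7 lay above all controls on both scales and Pecam1 only after scaling. The other endothelial and lymphocyte markers overlapped on both scales. The part of these cells in the level of Ier3 or in the Junb share was not tested. Erythroid transcripts summed to 2649 FPKM in D2, the library with the highest Fos, Fosb, Junb, Egr1, Atf3, Ier2 and Ier3 as deposited, and to 142 to 639 FPKM in the other 5. Cholangiocyte markers summed to 9.21 to 16.4 FPKM in C1 to C3 and 14.5 to 34.04 FPKM in D1 to D3, and most of each sum was Spp1, which the list of AP-1 and Zfp36 targets also holds. Epcam, an epithelial surface marker, was lower in every DEN+CCl4 library than in any control on both scales (0.22, 0.21 and 0.17 FPKM against 0.11, 0.10 and 0 FPKM).

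**Figure D5:**
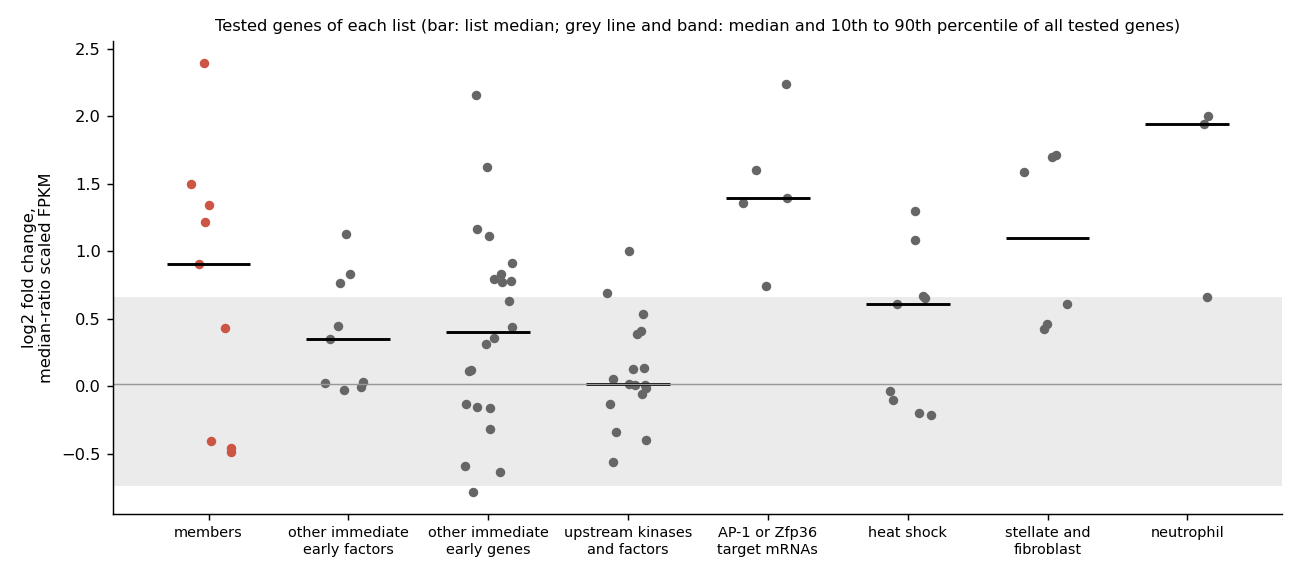
Log2 fold change of DEN+CCl4 against control on median-ratio scaled FPKM (y axis) of the tested genes of the lists named on the x axis. Points are genes (members in red) and bars are list medians. The grey line and band are the median (0.01) and the 10th to 90th percentile (-0.73 to 0.65) of all tested genes. Of the cell type lists only stellate and neutrophil markers are drawn (medians 1.10 and 1.94). Not drawn are hepatocyte, Kupffer cell, lymphocyte, endothelial, cholangiocyte and erythroid markers (medians 0.08, 0.15, 0.33, 0.38, 0.83 and 0.99). Of the members, Ier3, Junb, Fos, Atf3 and Egr1 lie above the band and none lies below it, and the upstream kinases and factors have a median of 0.02.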

How the data were processed

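Per the file headers, the deposited values are FPKM, with 2 decimals and 1 column per library. Per the labels' protocols, a SMARTER kit made the libraries from poly(A) RNA (RIN over 7). The submitters' processing notes name GRCm38, StringTie and HISAT. Not given in the sources used here: tool versions, annotation and strand setting. Because FPKM is relative to the whole library, a library dominated by a few transcripts has low values for the rest. Depth is unknown: tested for multiples of a single-read step, at best 26.3% to 30.2% of a library's low values lay within 0.1 of a whole multiple (20% by chance). Intervals that need counts are not given.

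The tested genes averaged 1 FPKM or more, and limma 3.58.1 in R 4.3.3 compared log2(FPKM + 1), a scale that understates the change of low genes (trended empirical Bayes, both sides, group as the sole term). Benjamini-Hochberg adjustment ran over 8528 genes, with a threshold of 0.05. Exact permutation tests, ratios and figures used Python 3.11.15 with scipy 1.17.1 and matplotlib 3.10.9. The fit was also run on simulated data with equal noise in every library and a lower scale in D3. That setting lacks the unequal spread of the real libraries, so it is no check on the results given here. Median-ratio factors came from tested genes above 0 in all libraries. Positions come from GENCODE M21 on GRCm38, and promoters from RefSeq. The members and gene lists were chosen with earlier results of these data known. The text names all 10 members, genes of other lists past the threshold, otherwise the 2 to 4 with the highest means, and the 8 genes most like the members. Ratios between members, genes so marked, and Fosl1, Fosl2, Tnf, Socs3, Ctgf, Col1a1, Lrat, Reln, Epcam, Cxcr2, Alb, Cps1 and Tat were added after values were seen. So were S100a9, Csf3r, Hsph1, Dnajb1, Hsp90aa1, Timd4, Marco, Lyve1, Pecam1, Cd3g, Cd2 and Nkg7. Alas2, Klf6, Mkl2, Map2k7, Il1b, Ccl2, Ccl3, Mmp9, Mmp12, Mmp13, Timp1, Plaur, Cd44 and Plau were also named after values were seen. Alternatives were other pseudocounts, filters, scalings, weights, a replicate block and leaving out each library.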

Additional observations from a re-analysis of the deposited data

How the results depend on the processing

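The number of immediate early genes called higher, 1 in the report (Ier3), was 0 with a pseudocount of 0.1 or 0.01, without a filter, with a filter at 5 FPKM (Ier3 was then not tested), with median-ratio scaling, TPM or quantile normalization, without mitochondrially encoded genes and without the trend. It was 2 with array weights (Fos and Junb), where DEN+CCl4 replicate 3 had a weight of 0.062, and 0 to 1 when a library was left out. With median-ratio scaling and a library left out it was 0 to 2, the 2 being Fos and Ier3 without DEN+CCl4 replicate 1. No member was called lower in any setting run. Over all genes, 71 higher and 55 lower became 6 and 3 (pseudocount 0.1), 4 and 0 (0.01), 0 and 0 (no filter, median-ratio scaling, quantile normalization and no trend; smallest limma adjusted p = 0.875, 0.198, 0.152 and 0.124), 14 and 53 (filter at 5 FPKM), 31 and 27 (TPM), 6 and 3 (without mitochondrially encoded genes) and 287 and 134 (array weights). Leaving out a library gave 0 to 109 higher and 0 to 270 lower, with median-ratio scaling 0 to 294 and 0 to 362.

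With the replicate number as a block, 62 genes were higher and 32 lower, and Ier3 kept its call (limma adjusted p = 0.0291). With median-ratio scaling and the block, added after the data were seen, 0 and 0 were called. Deviations of same-numbered libraries from their group means correlated at 0.03, 0.49 and -0.07. Differently numbered libraries correlated at -0.44 to 0.26, below the 0.49 of C2 with D2. Whether same-numbered libraries share a batch is not given and was not tested.

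Of 213 alternative fold changes of tested members, 22 changed sign, all in members with no call. Ier2 went from -0.02 to 0.43 with median-ratio scaling (with or without the block), 0.69 with quantile normalization, 0.16 without mitochondrially encoded genes and 0.094 with array weights. It was 0.12, 0.08 and 0.54 without control replicates 2 and 3 and DEN+CCl4 replicate 3, and 0.20 to 0.61 with scaling and a library left out (0.20, 0.60, 0.49, 0.61, 0.29 and 0.39). Zfp36 went to 0.73 with array weights, 0.28 without DEN+CCl4 replicate 3, and 0.12 and 0.14 with scaling and without DEN+CCl4 replicate 3 or control replicate 2. Egr1 went to -0.020 with array weights, -0.03 without control replicate 1 and -0.12 without DEN+CCl4 replicate 2. Jun went to 0.28 with scaling and without control replicate 2. Zfp36l2 went to -0.019 without DEN+CCl4 replicate 2. When a library was left out, deposited values ranged from -0.12 to 0.94 for Egr1, -0.50 to 0.54 for Ier2, -1.46 to 0.28 for Zfp36 and -0.019 to 0.99 for Zfp36l2. The causes were not tested. Members above all controls numbered 3 after median-ratio scaling and 1 as deposited. The difference in the Junb share, 31.0 percentage points, was 24.2 to 35.1 when a library was left out. The count of 18 non-overlapping pairs was 19 to 32 when a library was left out. That was 42.2% to 71.1% of member pairs, against 19.4% to 42.6% of all pairs of tested genes. Depth is unknown, and with 3 libraries a group no single comparison can go below an exact p of 0.1.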
